A study of Mus musculus with 7 samples.

Results

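The Pax genes encode transcription factors that share a paired DNA-binding domain, and 7 of them, *Pax1*, *Pax2*, *Pax3*, *Pax6*, *Pax7*, *Pax8* and *Pax9*, were followed in the posterior second heart field (pSHF) of mouse embryos with and without *Shh*. Their members on the array were all probes that carry one of these 7 gene names, 12 of the 41174 probes, for 7 of 21475 gene names. Each probe was read on 7 single-colour Agilent arrays, 4 hybridized with RNA of *Shh* -/- pools (mutant pools 1 to 4) and 3 with RNA of *Shh* +/+ pools (wild-type pools 1, 3 and 4). All embryos came from *Shh* +/- parents of a mixed background, given in the labels as C56B/6 and CD-1, with superovulated mothers, and were dissected at E9.5. The mutants carried a germline loss of *Shh* in every cell, and each array stands for several pooled embryos. The dissected pSHF kept the attached foregut and nearby ventral lateral plate mesenchyme. The neural tube, the heart and the dorsal lateral plate mesenchyme were taken away. Whether somites were part of the tissue is not stated. In such tissue fewer cells of a type and less RNA per cell cannot be told apart.

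Sonic hedgehog secreted by the notochord and floor plate turns on *Pax1* and *Pax9* in the ventral part of the somite, the sclerotome, from which vertebrae and ribs form. Both genes also mark the endoderm of the pharyngeal pouches, the foregut outpocketings that give rise to the thymus and parathyroid glands. *Pax3* and *Pax7* are genes of the dorsal neural tube, the neural crest and the dermomyotome, *Pax6* of the eye, neural tube and pancreas, *Pax2* of the intermediate mesoderm, otic placode and optic stalk, and *Pax8* of the thyroid bud and pronephros.

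The probes differ in what part of a transcript they read. The called probes of *Pax1* and *Pax9* and the brightest probes of *Pax3* and *Pax6* are shown by their first 30 of 60 bases, 5′ to 3′ and in lower case throughout, because the results turn on them.
Pax1, brighter probe: tcaattgttgtagtcataaacatattactg
Pax9: gagaagaaacctatccccctcaaagggctt
Pax3, brighter probe: aaatattagtctcgatcctttgataccgtg
Pax6, brightest probe: tctttcttggccagcaaaagttaattgttc

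The second *Pax1* probe and the *Pax2* probe lie at the start of the paired box, the part of the gene that the family shares, and are shown whole with the bases that are identical between them in an alignment in capitals.
Pax1, second probe: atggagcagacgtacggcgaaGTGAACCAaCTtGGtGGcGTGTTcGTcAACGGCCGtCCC
Pax2: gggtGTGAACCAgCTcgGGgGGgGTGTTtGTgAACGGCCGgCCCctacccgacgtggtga
They are identical at 32 of 39 aligned bases, the closest of the 66 pairs among the 12 Pax probes. The next pair had 27 identical bases of 37. Whether either probe binds the RNA of the other gene was not tested.

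The array annotation places the brighter *Pax1* probe on chromosome 2, 147200673 to 147200732 (mm9, + strand), and the second at 147191039 to 147191524. *Pax9* is read on chromosome 12, 57811169 to 57811228 (+ strand), *Pax2* on chromosome 19, 44835375 to 44835433 (+ strand), and *Pax7* on chromosome 4, 139294364 to 139294423 (- strand). The *Pax3* probes lie on chromosome 1, 78099476 to 78099535 and 78180183 to 78180242. The *Pax6* probes lie on chromosome 2, 105537277 to 105537336 (the brightest), 105535591 to 105536463 and 105524098 to 105524949, and the *Pax8* probes on the same chromosome, 24276785 to 24276844 and 24328201 to 24328260. Exons and UTRs of this build were not used here.

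Values are normalized log2 signals after background correction and variance stabilization, and changes are mutant minus wild type on that scale. Between 59.8% and 70.6% of the probes were well above background on an array. Only probes seen well above background in all pools of one genotype or the other were tested. These were 23116 probes of 14890 genes, with a median change of 0.02 and a median SD between pools of 0.19. Probes were called at a limma adjusted p under 0.05. The targeted gene *Shh* had 9.67, 9.39, 9.22 and 9.32 in mutant pools 1 to 4 and 10.72, 10.74 and 9.98 in wild-type pools 1, 3 and 4, with no overlap and a change of -1.08 (SE 0.20, limma's adjusted p = 0.0655). This left 47.4% of the wild-type *Shh* signal. By RT-PCR the paper reported a larger loss of *Shh* in the mutant tissue, with *Ptch1* and *Gli1* reduced as well. Why the array probe and RT-PCR differed was not tested. The pSHF list, with *Tbx5*, *Isl1*, *Osr1*, *Gata4* and *Hoxb1* among its genes, had a tested probe for 13 of 13 genes. Mutant and wild-type pools of the same number shared a slide for numbers 1, 3 and 4, always with the mutant in the first array position, so position and genotype cannot be told apart. The labels say that the array of mutant pool 2, alone on its slide, may have leaked.

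Of the 12 Pax probes, 5 could be tested, 1 each for *Pax1*, *Pax9*, *Pax3*, *Pax6* and *Pax2*. The 2 probes called, those of *Pax1* and *Pax9*, were both lower in the mutants. Among all probes tested, 129 of 23116 were called, or 0.558%, with 0.294% lower and 0.264% higher. At an unadjusted p under 0.05 there were 3 Pax probes, *Pax3* besides the 2 called, and 7.96% of all probes. *Pax9* entered the test through the wild-type pools alone, where it is high, so the number of Pax probes called is a description and supports no direction. With no filter on dim probes 0 of the 12 Pax probes were called by limma, and 3 had an unadjusted p under 0.05. The genotypes did not overlap in *Pax1* and *Pax9*, where all mutant pools were the lower ones. Of 23025 probes measured in all pools, 8.36% did not overlap, 3.55% lower and 4.8% higher in the mutants. *Pax7* and *Pax8* had no probe that could be tested.

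**Figure D1:**
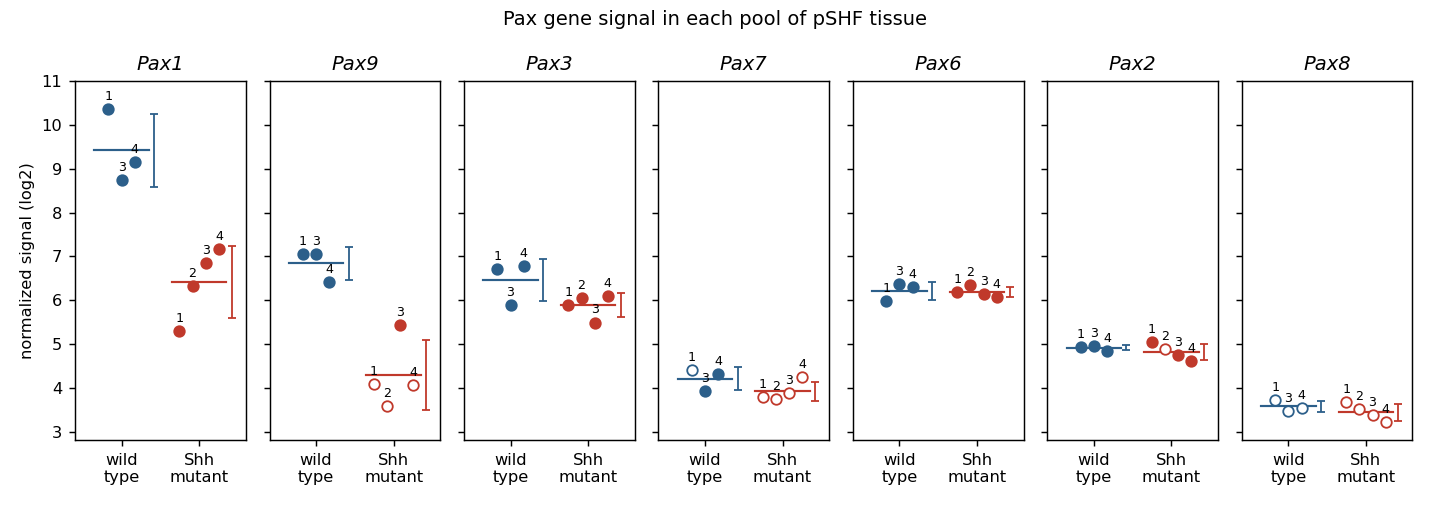
Normalized log2 signal of each Pax gene (its brightest probe) in every pool, wild type in blue and *Shh* mutant in red. Numbers are pool numbers, filled points were well above background and hollow points were not, lines are means and bars are SD (n = 3 wild-type and 4 mutant pools). The mutant points lie below all wild-type points for *Pax1* and *Pax9* and overlap them for the other 5 genes, and signals of different genes come from different probes and are not to be compared.

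*Pax1* had the most negative change of all 23116 probes tested with all 7 arrays. This rank did not hold under every alternative, since *Hhip*, a Hedgehog target gene, had a more negative change without wild-type pool 1 (-2.76 against -2.54 for *Pax1*), without mutant pool 1 (-2.87 against -2.64) and without slide 1 (-2.81 against -2.17), and the forkhead gene *Foxf2* did so with the local background (-2.56 against -2.51). *Pax9* was also more negative than *Pax1* with 75th percentile scaling (-3.24 against -3.16). Without slide 1 both *Pax9* (-2.37) and *Foxf2* (-2.27) were more negative than *Pax1*. The brighter *Pax1* probe read 5.30, 6.33, 6.84 and 7.17 in mutant pools 1 to 4, and 10.36, 8.75 and 9.15 in wild-type pools 1, 3 and 4. The highest mutant pool was 1.58 below the lowest wild-type pool. The means were 6.41 ± 0.82 (SD, n = 4) and 9.42 ± 0.84 (SD, n = 3), a change of -3.01 (SE 0.48, 95% interval -4.10 to -1.91, limma's adjusted p = 0.0425). This left 12.4% of the wild-type signal, 8.04-fold lower. An exact two-sided permutation test over the 35 splits of the pools gave p = 0.0286, the smallest that 4 pools against 3 can reach. The probe was well above background in 4 of 4 mutant and 3 of 3 wild-type pools, so *Pax1* was still detected without *Shh*.

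The *Pax1* difference was uneven over the slides. Within slides 1, 3 and 4 it was -5.06, -1.91 and -1.97. Slide 1 held both the lowest mutant pool and the highest wild-type pool. Without both of them the change was -2.17 (limma's adjusted p = 0.0828), and with slide as a replicate block it was -2.98 (limma's adjusted p = 0.123). Mutant pool 2, alone on its slide, adds nothing to a blocked change, which rests on the 3 slides with both genotypes. Leaving out any 1 pool other than mutant pool 1 ended the call, with the smallest change, -2.54, and the highest limma adjusted p, 0.179, without wild-type pool 1.

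The probe was printed as 10 spots on each array, and these agreed far more closely than the pools did. After outlier spots were left out, 9 or 10 spots remained on an array, with an SD of 0.02 to 0.11 on the log2 scale. Their mean signals averaged 58.2, 119, 194 and 148 intensity units in mutant pools 1 to 4 and 1070, 490 and 646 in wild-type pools 1, 3 and 4. One spot of mutant pool 1 read 335 and had been marked as an outlier by the scanner software. With outlier spots kept, the change was -2.92 (limma's adjusted p = 0.0362).

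**Figure D2:**
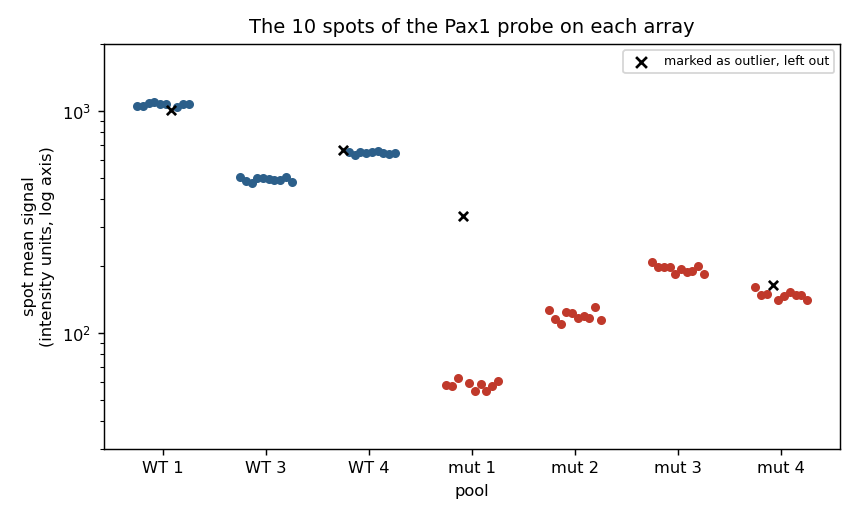
Mean signal of the 10 spots of the brighter *Pax1* probe on each array, in intensity units on a log axis, wild-type pools (WT) in blue and mutant pools (mut) in red. Crosses mark spots left out as outliers. Spots of a pool lie close together, the wild-type pools average 490 to 1070 and the mutant pools 58.2 to 194, and the outlier of mutant pool 1 at 335 is the spot farthest from its array's others.

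The second *Pax1* probe, at the start of the paired box, carried no usable signal. It read 4.72, 4.10, 3.82 and 3.97 in the mutant pools and 4.43, 4.31 and 4.17 in the wild-type pools, and the genotypes overlapped. It was well above background in 0 of 4 mutant pools and 1 of 3 wild-type pools and was not tested. The *Pax1* result therefore rests on 1 probe sequence.

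*Pax9*, the closest relative of *Pax1*, read 4.09, 3.58, 5.44 and 4.07 in mutant pools 1 to 4 and 7.06, 7.05 and 6.41 in wild-type pools 1, 3 and 4. Its single spot gave 38.6, 41, 87.9 and 43 intensity units in the mutants and 130, 168 and 117 in the wild types. The highest mutant pool, pool 3, was the 1 of 4 well above background, and it still lay 0.97 below the lowest wild-type pool. With means of 4.29 ± 0.80 (SD, n = 4) and 6.84 ± 0.37 (SD, n = 3), the fitted change was -2.55 (SE 0.39, 95% interval -3.43 to -1.66, limma's adjusted p = 0.0355). This p comes after a filter that the probe passed only through the wild types, and with no filter the same change was not called (limma's adjusted p = 0.0892). Most mutant pools had no signal well above background, so dim pools were also set to the lowest such signal on their array. With this the mutants had 4.06-fold lower *Pax9* on average. This fold allows for the dim pools only and is not a lower limit, because it leaves out the spread between pools. The 95% interval reached -1.66, a smaller change than this fold. The fold also holds for this processing alone. As given next, the fitted change was nearer 0 with no background correction, the local background and quantile normalization. It was more negative with another scaling.

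Within slides 1, 3 and 4 the *Pax9* difference was -2.97, -1.61 and -2.35. The exact two-sided permutation test gave p = 0.0571. With the replicate block the change was -2.31 (limma's adjusted p = 0.0541), and leaving out any 1 pool other than mutant pool 3 ended the call, with limma's adjusted p highest, 0.207, without wild-type pool 1 (change -2.44). Both the background correction and the scaling moved this dim probe. The change was -1.87 with no background correction and -0.87 with the local background of each spot, where it was not called (limma's adjusted p = 0.143). It was -1.27 with quantile normalization and -3.24 with 75th percentile scaling, where it was not called either (limma's adjusted p = 0.0625).

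**Figure D3:**
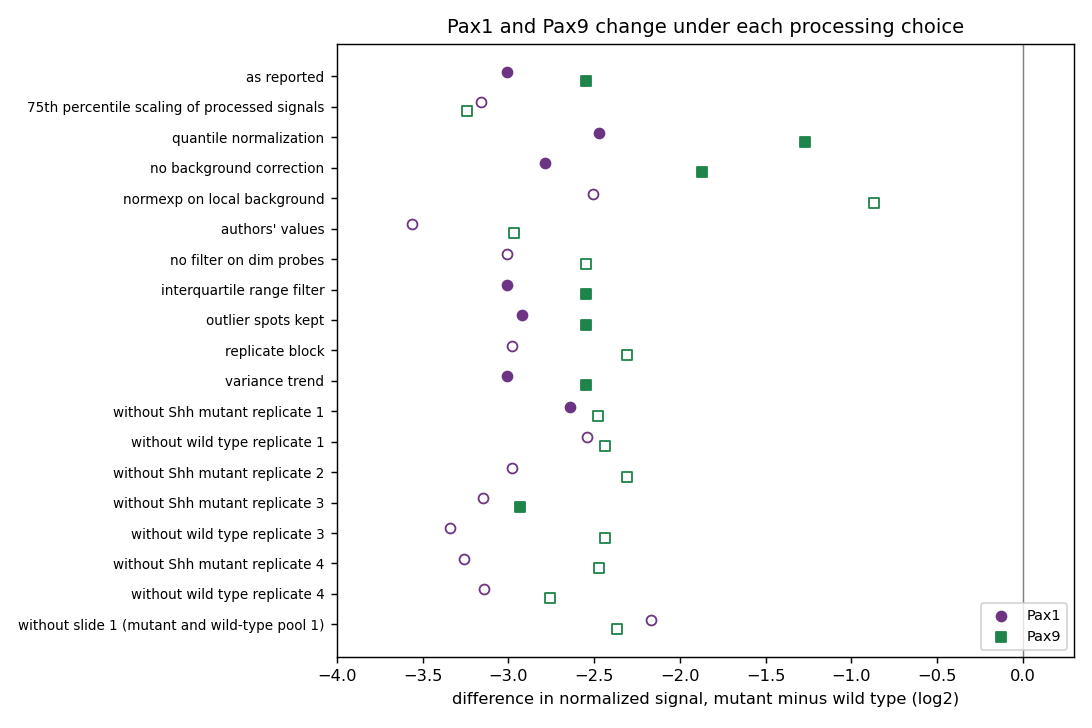
Change of *Pax1* (purple circles) and *Pax9* (green squares), mutant minus wild type in normalized log2 signal, under each way of processing, in rows. Filled symbols were called at a limma adjusted p under 0.05 and open symbols were not. All symbols lie below 0, *Pax1* between -3.56 and -2.17 and *Pax9* between -3.24 and -0.87, and many are open.

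*Pax3*, a dorsal gene, had a smaller difference that was not called. Its brighter probe, with 10 spots, read 5.90, 6.06, 5.49 and 6.10 in mutant pools 1 to 4 and 6.70, 5.90 and 6.77 in wild-type pools 1, 3 and 4. Wild-type pool 3 lay within the mutant range. The change was -0.57 (SE 0.24, 95% interval -1.10 to -0.04, limma's adjusted p = 0.566), with an exact two-sided permutation p of 0.143. Within slides 1, 3 and 4 the mutant pool was the lower one each time, by -0.80, -0.41 and -0.67, and with the replicate block the adjusted p of limma was 0.165. The second *Pax3* probe was well above background on 0 arrays, at 3.10 to 3.43. *Pax7*, the other dorsal member, read 3.80, 3.75, 3.88 and 4.24 in the mutants and 4.40, 3.92 and 4.31 in the wild types, and was well above background in 0 of 4 mutant and 2 of 3 wild-type pools.

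*Pax6* was not called on its brightest probe, which lay well above background in all 7 pools. It read 6.18, 6.34, 6.15 and 6.07 in mutant pools 1 to 4 and 5.97, 6.36 and 6.31 in wild-type pools 1, 3 and 4, and the genotypes overlapped. The change of -0.03 (SE 0.13, limma's adjusted p = 1) had a 95% interval of -0.33 to 0.27. A second probe, printed 10 times, had means of 4.45 in mutants and 4.50 in wild types and was well above background in 1 of 4 and 2 of 3 pools. The third was well above background on 0 arrays, at 3.08 to 3.98.

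*Pax2* read 5.04, 4.89, 4.75 and 4.62 in mutant pools 1 to 4 and 4.92, 4.96 and 4.85 in wild-type pools 1, 3 and 4. Mutant pool 1 was the highest of the 7 and the genotypes overlapped. The change was -0.08 (SE 0.13, 95% interval -0.37 to 0.20, limma's adjusted p = 1). The probe was well above background in 3 of 4 mutant and 3 of 3 wild-type pools, and its spots had an SD of 0.12 to 0.29 within an array. Both *Pax8* probes were well above background on 0 of 7 arrays, with 3.22 to 3.72 on the one and 3.14 to 3.66 on the other. The remaining family members that carry a probe, *Pax4* and *Pax5*, could not be tested either, with *Pax4* well above background in 1 of 4 mutant and 1 of 3 wild-type pools and *Pax5* in none of the 7.

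**Figure D4:**
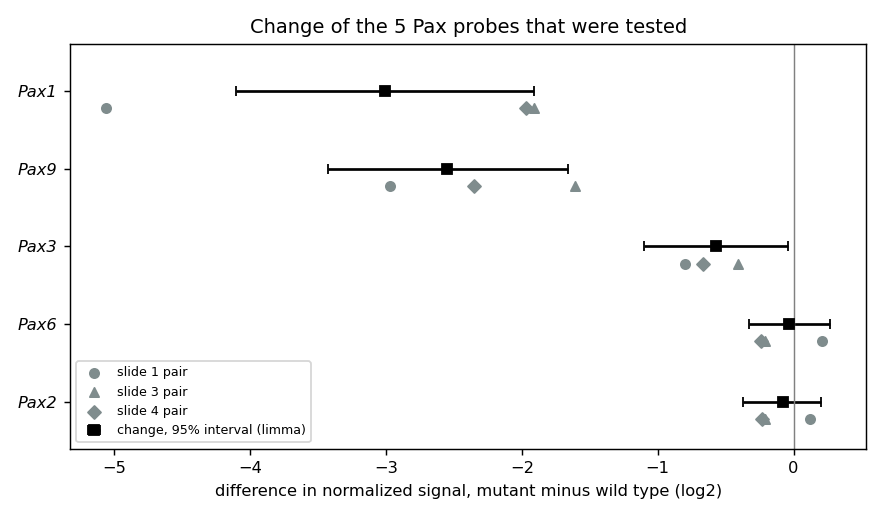
Change of the 5 tested Pax probes, mutant minus wild type in normalized log2 signal. Squares with bars are the limma estimate and its 95% interval (4 mutant against 3 wild-type pools), and grey markers are the mutant minus wild-type differences of the pools that shared slide 1, 3 or 4. *Pax1* and *Pax9* lie at -3.01 and -2.55 with all slide differences below -1.5, while the intervals of *Pax6* and *Pax2* include 0.

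The members were then set against each other within each pool, which removes any shift common to all probes of an array. The difference between the log2 signals of 2 members was compared between genotypes with an exact two-sided permutation test for 7 pairs, adjusted over the 7. *Pax1* minus *Pax3* fell from 2.96 ± 0.65 (SD, n = 3) in wild types to 0.52 ± 0.88 (SD, n = 4) in mutants, a difference of -2.44 (exact permutation p = 0.0286, adjusted p = 0.0667). The differences were -2.98 against *Pax6* and -2.92 against *Pax2*, with the same p and adjusted p. For *Pax9* the measured signals gave -2.52 relative to *Pax6* and -2.46 relative to *Pax2* (exact permutation p = 0.0571 and adjusted p = 0.08 for both). Relative to *Pax3* they gave -1.98, with overlap between genotypes (exact permutation p = 0.0857, adjusted p = 0.1). These sizes are not exact, because 3 of the 4 mutant signals of *Pax9* were not well above background. *Pax9* also entered the pairs through the wild-type pools alone, where it is high. The p-values of its pairs, and whether they pass a threshold, are therefore a description and support no direction. In all 6 of these pairs the difference was negative within each of the 3 slides, but 0 of the 7 pairs passed 0.05 after adjustment. With quantile normalization 5 of the 7 passed, and with the local background 6.

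The changes of *Pax1* and *Pax9* did not differ past the threshold with this processing. *Pax1* minus *Pax9* was 2.12 ± 0.95 (SD, n = 4) in mutants and 2.58 ± 0.81 (SD, n = 3) in wild types, a difference of -0.46 (exact permutation p = 0.514). Within slides 1, 3 and 4 it was -2.09, -0.30 and 0.37. The mutant *Pax9* signals of slides 1 and 4 were not well above background, so these values do not say which gene fell more. With the local background the difference was -1.64 (exact permutation, adjusted p = 0.0333).

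Other genes of the tissues in which these members act were compared from fixed lists that leave the Pax genes out, each gene by its brightest tested probe. The sclerotome list held 12 genes, all tested, and 0 were called, with 7 of 12 lower and a median change of -0.14 against 0.02 over all probes (0.558% of all probes were called). *Nkx3-2*, a sclerotome gene downstream of *Pax1* and *Pax9*, was at 0.13 (SE 0.16, limma's adjusted p = 1), *Sox9*, a regulator of cartilage, at 0.02 (SE 0.14), and *Uncx*, a gene of the caudal sclerotome, at -0.20 (SE 0.15). *Nkx3-2* and *Uncx* were dim, with means of 5.78 and 5.01 in mutants and 5.65 and 5.21 in wild types. *Uncx* was well above background in 3 of 4 mutant pools. *Meox1*, active in the whole early somite, was at -1.10 (SE 0.24, limma's adjusted p = 0.106). The list's mean signal per pool was 9.21 to 9.52 in mutants and 9.47 to 9.90 in wild types.

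The pharyngeal pouch list held 11 genes, of which 8 were tested, 7 were lower and 1 was called, with a median change of -0.75. *Foxi2*, a forkhead gene, changed by -1.47 (SE 0.22, limma's adjusted p = 0.0345) and was well above background in 2 of 4 mutant pools. It passed the filter only through the wild types, where it is high, and was not called with no filter (limma's adjusted p = 0.0802). It was not called either with the replicate block (limma's adjusted p = 0.0541) and lost its call without any 1 pool other than mutant pool 1 (up to 0.12 by limma, without wild-type pool 1). The list's mean per pool was 8.69 to 9.07 in mutants and 9.36 to 9.68 in wild types, without overlap. This was not particular to the pouch list. The dorsal neural tube and neural crest list (9.35 to 9.60 against 9.62 to 9.88) did not overlap either. Nor did the pronephros and intermediate mesoderm list (7.65 to 7.77 against 7.83 to 8.05) or the Hedgehog pathway list (9.18 to 9.44 against 9.91 to 10.13). The means of the other tested lists overlapped. *Gcm2* and *Foxn1*, markers of the later parathyroid and thymus, and *Fgf3* had no probe bright enough to be tested. The part of these genes in the *Pax1* and *Pax9* differences was not tested.

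The lists for the tissues of the other members had 0 or 1 gene called each, as had the sclerotome and pouch lists (0.558% of all probes were called). Of the dermomyotome and myotome genes 8 of 12 were tested, 6 were lower, 0 were called, and the median was -0.55. *Lbx1*, a gene of migrating limb muscle precursors that needs *Pax3*, was at -0.44 (SE 0.19, limma's adjusted p = 0.598), and *Myf5*, an early muscle regulator, was well above background on 0 arrays. Of the dorsal neural tube and neural crest genes 12 of 17 were tested, 7 were lower, and the median was -0.09. The 1 called was *Zic1*, a zinc finger gene of dorsal neural tube and somites, at -1.92 (SE 0.32, limma's adjusted p = 0.0439, with the replicate block 0.0817), a call lost without any pool other than mutant pool 4 (up to 0.231, without wild-type pool 1). Of the 17 genes, *Wnt1*, *Wnt3a*, *Lmx1a*, *Olig3* and *Zic2* could not be tested.

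Of the neural tube genes 9 of 16 were tested, 8 were lower, 0 were called, and the median was -0.25. *Neurog2*, a proneural gene that *Pax6* activates, spread widely over the mutant pools, with 8.38, 3.65, 4.75 and 5.00 in pools 1 to 4 against 7.01, 7.02 and 6.56 in wild types. *Olig2*, a motor neuron progenitor gene, was at -0.13 (SE 0.12). *Sox1*, *Sox3* and *Irx3*, which mark most neural tube progenitors, could not be tested. *Sox2*, of the same list, was well above background in 4 of 4 mutant and 3 of 3 wild-type pools. It was at -0.40 (SE 0.13, limma's adjusted p = 0.335). In the pancreas list 8 of 10 genes were tested, 5 were lower, 0 were called and the median was -0.25.

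For the tissues of *Pax2* and *Pax8*, the pronephros and intermediate mesoderm list had 10 of 12 genes tested, 7 lower and a median of -0.30. The 1 called was *Six2*, a gene of nephron progenitors that is also used in pharyngeal and head mesenchyme, at -1.45 (SE 0.16, limma's adjusted p = 0.0123, with the replicate block 0.0541), and its call was lost without wild-type pool 1 (0.0708 by limma) or mutant pool 3 (0.0652). *Lhx1*, a gene of the nephric duct, was at 0.24 (SE 0.13), and *Gata3*, a target of *Pax2* and *Pax8* there, at -0.30 (SE 0.12, limma's adjusted p = 0.564). The otic placode list had 6 of 8 genes tested, 5 lower, a median of -0.61, and 1 called, *Gbx2*, a homeobox gene of hindbrain, otic vesicle and pharyngeal arches, at -0.83 (SE 0.13, limma's adjusted p = 0.0433, with the replicate block 0.0832), and its call was lost without any 1 of the pools. In the thyroid bud list 3 of 6 genes were tested and 0 were called. *Nkx2-1*, a partner of *Pax8* in the thyroid and a foregut gene, was at -0.88 (SE 0.15, limma's adjusted p = 0.0519), and *Hhex*, also of the thyroid bud, at 0.55 (SE 0.13, limma's adjusted p = 0.147).

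**Figure D5:**
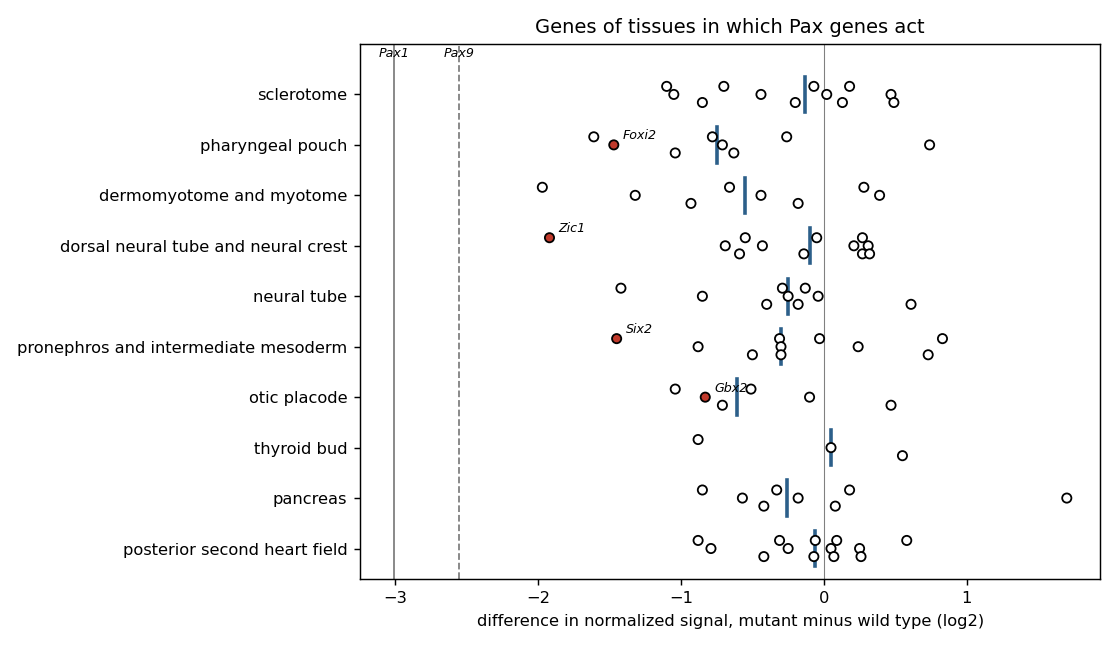
Change of each tested gene of the tissue lists, mutant minus wild type in normalized log2 signal, 1 point per gene in rows by list. Red points were called at a limma adjusted p under 0.05, open points were not, blue bars are list medians, and vertical lines mark *Pax1* (solid) and *Pax9* (dashed). The changes of *Pax1* and *Pax9* are more negative than those of all genes shown, and the sclerotome row spreads around its median of -0.14 with 0 genes called.

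The Hedgehog pathway list held 13 genes, all tested, with 9 lower, 2 called and a median of -0.73 (0.558% of all probes were called). *Hhip*, a membrane protein that binds Hedgehog ligands and is induced by the pathway, changed by -2.83 (SE 0.18, limma's adjusted p = 0.00126), and *Foxf2*, a forkhead gene of foregut mesenchyme, by -2.43 (SE 0.18, limma's adjusted p = 0.00216). Both kept their call with the replicate block (limma's adjusted p = 0.00763) and without any 1 pool, which *Pax1* and *Pax9* did not. The SEs of *Hhip* and *Foxf2* were 0.18, against 0.48 for *Pax1* and 0.39 for *Pax9*. The pSHF list had 0 of 13 genes called, a median of -0.06, and a mean per pool of 10.71 to 11.11 in mutants and 10.97 to 11.07 in wild types. With 0.558% of all probes called, 0 of 13 does not show that these genes were unchanged.

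The genes whose signal followed *Pax1* most closely over the 7 arrays, among 14831 genes compared, were *Dgat2l4* (r = 0.985), *Mmp9* (0.983), *Aatk* (0.983), *T* (0.976) and *Fam163a* (0.973). *Mmp9*, a secreted gelatinase, changed by -0.95 (limma's adjusted p = 0.0355), *Aatk* by -1.03 (limma's adjusted p = 0.0317), and *T*, the notochord and mesoderm gene Brachyury, by -0.81 (limma's adjusted p = 0.113). For *Pax9* they were *Sepsecs* (r = 0.985), *AY074887* (0.979), *Fgf8* (0.975), *8430408G22Rik* (0.975) and *Lbxcor1* (0.975). *Fgf8*, a growth factor of pharyngeal epithelium, changed by -1.61 (limma's adjusted p = 0.0892) and *Lbxcor1*, now named *Skor1*, by -2.42 (limma's adjusted p = 0.00819). These are Pearson correlations over 4 mutant and 3 wild-type arrays and are in part set by the genotype difference itself. They, and those of the deviations that follow, are the highest among 14831 genes over only 7 arrays. Just 1 of the 4 mutant signals of *Pax9* was well above background, so its correlations rest in part on values at background level. After the genotype means were subtracted, the closest genes were others, *Tmem161b* (r = 0.985), *Dpy19l3* (0.982), *4932415G12Rik* (0.981), *4732444A12Rik* (0.979) and *Selenbp1* (0.978) for *Pax1*, and *Vpreb2* (0.993), *3110002H16Rik* (0.988), *Sh3rf3* (0.984), *3222401L13Rik* (0.98) and *1110032A03Rik* (0.977) for *Pax9*. Of these 10 genes 0 were called, against 0.558% of all probes.

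*Pax1* and *Pax9*, the 2 members with a called probe, are shown with the 250 bases before a RefSeq transcript start, on the + strand of GRCm38.p6, a later build than that of the probe positions. They stand at chr2:147364744-147364993 and chr12:56695221-56695470. Capitals mark TGGGTGG, the first 7 bases of TGGGTGGTC, the sequence that GLI proteins, the transcription factors of the Hedgehog pathway, are known to bind.
Pax1, upstream: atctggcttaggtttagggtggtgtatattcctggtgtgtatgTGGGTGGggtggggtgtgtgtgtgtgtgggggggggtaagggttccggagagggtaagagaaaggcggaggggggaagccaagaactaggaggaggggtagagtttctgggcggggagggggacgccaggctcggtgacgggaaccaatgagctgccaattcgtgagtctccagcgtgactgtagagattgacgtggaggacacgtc
Pax9, upstream: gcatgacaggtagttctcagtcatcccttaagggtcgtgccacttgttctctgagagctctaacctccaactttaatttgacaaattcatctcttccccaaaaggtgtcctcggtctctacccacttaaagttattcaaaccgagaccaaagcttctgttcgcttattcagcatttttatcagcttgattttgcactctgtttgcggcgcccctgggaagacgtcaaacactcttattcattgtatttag
The whole TGGGTGGTC was found, on either strand, in 0 of the 9 promoters of the 7 members and in 0.225% of 32851 promoters. The shorter TGGGTGG, which the longer one contains, was found in 1 of the 9, that of *Pax1*, with its first base 207 bases before the start, and in 8.11% of all promoters. The shorter sequence was chosen after several GLI-like sequences had been looked for in these promoters, and a match is a description of the letters only.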

How the data were processed

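RNA of pSHF pools was measured on 7 arrays. Agilent Feature Extraction 10.5.1.1 read the scans, and the authors deposited its output, in which the signal and the local background of a spot are intensities. The authors also deposited normalized values on a log2 scale. Their methods name background correction, removal of outlier features and VSN. Genotype and pool number came from the labels, whose strain and genotype entries are exchanged and were read by content.

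Mean signals were corrected by normexp (background from negative control spots, offset 50) and then variance-stabilized (VSN written anew, 5 strata, 7 iterations, trimming share 0.9) and put on a log2 scale. Spots marked as outliers, 155 to 206 on an array, were dropped, and spots of a probe were averaged. Genotypes were compared with limma 3.58.1 in R 4.3.3 (lmFit and eBayes), with Benjamini-Hochberg adjustment over the 23116 probes tested, and single values with exact permutation tests. SAM, the test in the methods, was not run here. The number of arrays limits the precision. The labels do not say that pools came from separate litters, so p-values measure the spread between these pools.

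Named were all members, list genes called, 12 partner genes, the 5 genes closest to each called member, and *Sox2*, added after its values had been seen. The members and lists were chosen with earlier results of these data known, and some genes of the lists are not reported here and were left out of their counts. Pools of a number shared a slide, per the labels, and their deviations from the genotype means correlated at 0.192, 0.239 and 0.0328, against a mean of -0.0491 over 9 pairs from different slides. Alternatives were other scalings and background corrections, the authors' values, other filters, outlier spots kept, a variance trend, the replicate block and leaving out each array. On 23025 simulated probes with 200 changed, 83% of the log2 changes of 1 and 100% of those of 2 were called, and 6.63% of calls were false. The simulated noise was normal, independent between arrays and sized by limma's own SDs, with no slide effect and no loss of dim signals. These rates check the fit and need not hold for the real arrays. Probe alignments used Biopython 1.88, and figures matplotlib 3.10.9 in Python 3.11.15. Promoters were RefSeq sequences (GRCm38.p6).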

Additional observations from a re-analysis of the deposited data

How the results depend on the processing

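*Pax1* and *Pax9* were lower in the mutants under all alternatives run, and *Pax3* too, at -1.19 to -0.29 and never called. *Pax6* ran from -0.51 to 0.04 and *Pax2* from -0.16 to 0.03, not called under any. The 129 calls over all probes became 57 with 75th percentile scaling (66.7% lower, against 52.7%), 14 with the local background (100% lower), 33 with no filter on dim probes (69.7% lower), 11 with the replicate block (90.9% lower) and, by limma, 0 in the authors' values (28 with an unadjusted p under 0.05), whose median change was -0.54. Under these 5 the Pax probes called went from 2 to 0 by limma, with 2, 2, 3, 3 and 2 at an unadjusted p under 0.05. In the same order, *Pax1* was at -3.16, -2.51, -3.01, -2.98 and -3.56 (limma's adjusted p of 0.0625, 0.129, 0.0987, 0.123 and 0.934), and *Pax9* at -3.24, -0.87, -2.55, -2.31 and -2.97 (0.0625, 0.143, 0.0892, 0.0541 and 0.934). More probes were tested without the filter. In the authors' values the array medians were not level, with 5.501 for mutant pool 2 and 8.571 to 9.929 for the other pools. The most negative changes of *Pax1*, *Pax3* and *Pax6*, -3.56, -1.19 and -0.51, were those of the authors' values. The part of these medians in the lost calls was not tested, nor were the other causes. Both stayed called with quantile normalization, no background correction, the interquartile range filter, outlier spots kept and the variance trend.

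With 1 pool left out there were 12 (without mutant pool 3) to 139 calls (without mutant pool 1), 18 without wild-type pool 1, 31 without wild-type pool 3, 35 without mutant pool 2, 37 without wild-type pool 4 and 67 without mutant pool 4. Of the Pax probes 0 to 1 were called, *Pax1* without mutant pool 1 and *Pax9* without mutant pool 3. *Pax1* ran from -3.34 to -2.54 (limma's adjusted p of 0.0355 to 0.179) and *Pax9* from -2.93 to -2.31 (0.0101 to 0.207). Without slide 1, chosen after seeing the data, 6 probes were called, 0 of them Pax, with *Pax1* at -2.17, *Pax9* at -2.37 and *Pax1* minus *Pax9* at 0.20 against -0.46. With quantile normalization 5 of the 7 pairs passed 0.05 (exact permutation, adjusted p = 0.04), *Pax1* minus *Pax3* (-2.11), *Pax6* (-2.46) and *Pax2* (-2.48), and *Pax9* minus *Pax6* (-1.26) and *Pax2* (-1.28). With the local background 6 passed (adjusted p = 0.0333), *Pax1* minus *Pax9* (-1.64), *Pax3* (-2.22), *Pax6* (-2.48) and *Pax2* (-2.53), and *Pax9* minus *Pax6* (-0.84) and *Pax2* (-0.89). Slides gave the blocked values of the pairs. No member had a second tested probe to put in its place, and *Pax2* did not pass the interquartile range filter.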

Other observations

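The protein-coding genes next to *Pax1* and *Pax9* in RefSeq, 5 on each side, were chosen after the values of both had been seen. Of the 10 neighbours of *Pax1* 9 were tested and 0 were called (0.558% of all probes were called), with changes of -0.38 to 0.11. Among them *Foxa2*, a gene of floor plate, notochord and foregut endoderm, was at -0.25 (SE 0.12, limma's adjusted p = 0.715). Of the 10 neighbours of *Pax9* 8 were tested and 0 were called (0.558% of all probes were called), with changes of -0.88 to 0.15. The lowest was *Nkx2-1*, given above, and *Foxa1*, a gene of foregut endoderm, was at -0.06 (SE 0.23). *Nkx2-2* beside *Pax1* and *Nkx2-9* beside *Pax9*, both genes of the ventral neural tube, could not be tested.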
